A study of Mus musculus with 12 samples.

Results

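Bone morphogenetic protein (BMP) and transforming growth factor beta (TGF-beta) signalling was followed through 10 genes in sorted stromal cells of the mouse thymus. The genes were 3 BMP ligands (Bmp2, Bmp4 and Bmp6), 4 receptors and co-receptors (Bmpr2, Acvrl1, Eng and Tgfbr3), and 3 direct targets (Id1 and the inhibitory Smads Smad6 and Smad7). They were taken by symbol, as a list chosen with earlier results of these data known, and made up 10 of the 23306 gene symbols in the deposited table. All 10 passed the filter on low counts.

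The study compared stromal cells that carry or lack a tomato reporter for Kit ligand, a growth factor that early T-cell progenitors need, and its title places the source of that ligand in endothelium and epithelium. All cells came from C57 BL6 mice of the KitL-tomato reporter strain, and all were sorted as negative for lineage markers and for the dead-cell dye DAPI. Polyadenylated RNA was amplified with a kit for ultra-low input and sequenced. The 4 groups, with 3 libraries each, were vascular endothelial cells (VEC, EpCAM- CD31+) positive for tomato, VEC negative for tomato, cortical thymic epithelial cells (cTEC, EpCAM+ CD31- UEA1- Ly51+) positive for tomato, and medullary thymic epithelial cells (mTEC, EpCAM+ CD31- UEA1+ Ly51-) negative for tomato. The epithelial pair differed in the reporter and also in the gate for cortex or medulla, and these cannot be told apart. The sources used here do not give the age or sex of the mice, or how many stood behind a library. Nothing states that the 3 libraries of a group came from separate animals, so the p-values speak only for how these libraries varied, which may be technical.

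BMPs and TGF-beta are secreted dimers that bind a pair of type I and type II receptor kinases, which phosphorylate Smad proteins that move to the nucleus and switch on target genes. In endothelium the circulating ligands BMP9 and BMP10 signal through the type I receptor ALK1, the product of Acvrl1, together with the type II receptor BMPR2 and the co-receptor endoglin, the product of Eng. BMP2, BMP4 and BMP6 bind mainly other type I receptors, among them ALK3, the product of Bmpr1a. Loss of ALK1 or endoglin causes hereditary haemorrhagic telangiectasia in humans, and loss of BMPR2 is a cause of pulmonary arterial hypertension. In the mouse thymus BMP4 acts on the epithelium and sustains Foxn1, its master transcription factor, and endothelial BMP4 has been linked to regeneration of the thymus after damage.

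Total counts were 8388869 to 11807130 per library. Values are CPM, counts relative to library size, scaled by the trimmed mean of M-values (TMM), unless RPKM, which is also per transcript length, is named. The 6 endothelial markers summed to 7374 to 7979 CPM in tomato+ VEC and 7659 to 9927 CPM in tomato- VEC, while the 4 epithelial markers summed to at most 1.01 CPM there. The 4 cortical markers summed to 1897 to 2236 CPM in cTEC and 53.4 to 93.4 CPM in mTEC. The 5 medullary markers, Aire, Krt5, Krt14, Ccl21a and Fezf2, summed to 783 to 1354 CPM in cTEC and 4898 to 6449 CPM in mTEC. One library stood apart in a way that touched the receptors: endothelial markers summed to 290 CPM in cTEC replicate 2, against 15.2 CPM in replicate 1 and 2.08 CPM in replicate 3. They summed to 13.7 to 45.9 CPM in mTEC.

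Most of the 10 genes were called as higher in endothelium than in the mean of the epithelial groups. In VEC against the epithelial cells (TEC, cTEC and mTEC together), 8 of the 10 were higher at an adjusted p under 0.05 and none was lower. These 8 were Bmp4, Bmp6, Bmpr2, Acvrl1, Eng, Tgfbr3, Id1 and Smad7, and Smad6 and Bmp2 did not pass. Of all 14792 genes tested 36.3% were called in that comparison, 14.4% as higher and 21.8% as lower. For 5 of the 10 genes every VEC library lay above every TEC library, as did 7.49% of all genes, against 9.49% with every VEC library below, and the libraries of the other 5 genes overlapped. The median log2 fold change of the 10 was 2.29, against -0.18 over all genes tested. These calls are of group means and need not hold for each group. Tomato+ VEC lay below cTEC for Bmp4, and tomato- VEC was not separated from cTEC or mTEC by Id1. For Bmpr2 and Smad7 neither VEC group was separated from cTEC by the test. The fitted values of Bmp4 and Acvrl1 rest on 1 count in mTEC. In tomato+ VEC against tomato- VEC only Bmp4 passed, as lower, where 1.65% of all genes were called, 0.568% as higher and 1.08% as lower. In cTEC against mTEC Bmp4, Tgfbr3 and Acvrl1 were higher and none was lower, where 7.83% of all genes were called, 2.73% as higher and 5.10% as lower. In neither VEC against TEC nor cTEC against mTEC was any of the 10 lower at an unadjusted p under 0.05 by edgeR, or at an adjusted p under 0.05 by DESeq2 or limma. The median log2 fold change of the 10 was -0.15 in the endothelial reporter comparison and 1.80 in the epithelial one, against 0 and 0.02 over all genes. RNA of sorted cells is a bulk measure, in which fewer cells of a type and less RNA per cell cannot be told apart.

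**Figure D1:**
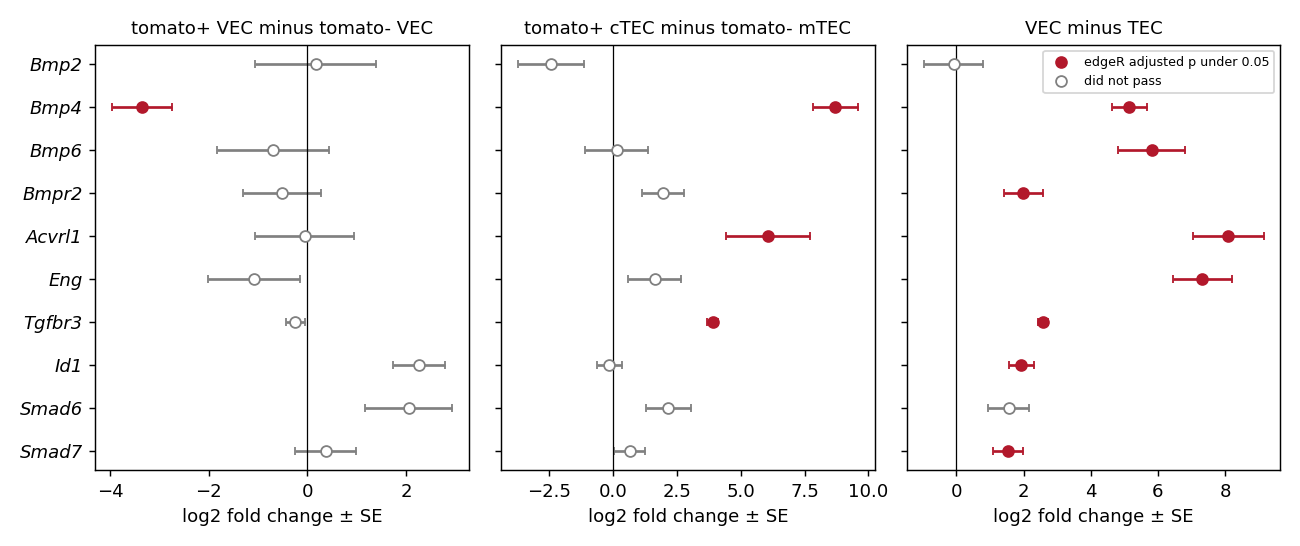
Fitted log2 fold change ± SE of the 10 genes in tomato+ VEC minus tomato- VEC, in tomato+ cTEC minus tomato- mTEC, and in VEC minus TEC, with filled red points for an edgeR adjusted p under 0.05 and open grey points for genes that did not pass. All genes but Bmp2 lie to the right of 0 in VEC minus TEC, while in the endothelial comparison Bmp4 lies at -3.35 and Id1, at 2.26, did not pass; the fitted values of Bmp4 and Acvrl1 against mTEC rest on 1 count in mTEC and are no bound.

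Among the ligands, Bmp4 had the most distinct pattern over the 4 groups. Bmp4, a BMP that acts on thymic epithelium, had 12.0, 4.97 and 12.6 CPM in tomato+ VEC, against 113, 121 and 69.3 CPM in tomato- VEC. It had 19.1, 12.7 and 22.9 CPM in cTEC, against 0, 0 and 0.0802 CPM in mTEC, the last from a single count. No libraries overlapped between tomato+ and tomato- VEC, or between cTEC and mTEC. The cTEC library richest in endothelial markers, replicate 2, had the lowest Bmp4 of the 3. The part of endothelial RNA in the cTEC values of Bmp4, Bmp6, Eng and Tgfbr3 was not tested. In tomato+ VEC Bmp4 fell by 3.35 on the log2 scale relative to tomato- VEC (SE 0.60, adjusted p = 0.0161). Leaving out tomato- VEC replicate 1 gave an adjusted p of 0.0559 and leaving out tomato- VEC replicate 2 gave 0.0616, with log2 fold changes of -3.25 and -3.13. The 603 Bmp4 counts in cTEC against 1 in mTEC gave a ratio of 581 with a 95% counting interval of 104 to 22972, and the adjusted p was 0.000209. Such intervals cover counting error only.

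Across compartments, the test separated tomato- VEC from cTEC by Bmp4 and did not separate tomato+ VEC from cTEC. Tomato+ VEC lay below cTEC in all libraries, by a log2 difference of -0.88 that did not pass (SE 0.56, adjusted p = 0.295). Tomato- VEC lay above cTEC, with a log2 fold change of 2.47 (SE 0.58, adjusted p = 0.0103). In the order of group levels, tomato- VEC was highest, followed by cTEC, tomato+ VEC and mTEC, and only the neighbours cTEC and tomato+ VEC were not separated by the test. The Bmp4 promoter is shown because the gene had the largest fitted change of the 10 within each compartment. It is written 5′ to 3′ from 250 bases before the RefSeq start site through the first 10 transcribed bases, at GRCm38.p6 chr14:46390660-46390919 on the minus strand, a build other than the mm9 of the deposited data.
Bmp4: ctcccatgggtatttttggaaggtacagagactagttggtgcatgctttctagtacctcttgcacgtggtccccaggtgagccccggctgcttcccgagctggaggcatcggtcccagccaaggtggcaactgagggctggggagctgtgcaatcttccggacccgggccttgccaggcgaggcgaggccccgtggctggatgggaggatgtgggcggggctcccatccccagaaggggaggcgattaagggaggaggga

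Bmp6, a BMP best known as an inducer of hepcidin when made by liver endothelium, was an endothelial transcript here. It had 4.57, 31.1 and 70.5 CPM in tomato+ VEC, 71.7, 59.2 and 40.8 CPM in tomato- VEC, 0.183, 2.16 and 0.173 CPM in cTEC, and 1.16, 0 and 1.04 CPM in mTEC. Every VEC library lay above every TEC library, although tomato+ VEC replicate 1 was far below replicates 2 and 3. In VEC against TEC the log2 fold change was 5.81 (SE 1.00, adjusted p = 0.000729). Between tomato+ and tomato- VEC the libraries overlapped and the log2 difference was -0.69 (SE 1.14, adjusted p = 0.838). The cTEC library with the most Bmp6, replicate 2, was the one in which endothelial markers were highest.

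Bmp2, a ligand first known for inducing bone, did not pass in any of the 6 pairs of groups. It ranged over 0.392 to 10.7 CPM in tomato+ VEC, 2.47 to 8.46 CPM in tomato- VEC, 0.0917 to 3.98 CPM in cTEC and 10.3 to 16.9 CPM in mTEC. All cTEC libraries lay below all mTEC libraries, with a log2 difference of -2.42 (SE 1.29, adjusted p = 0.334). Bmp2 differed from the other ligands in that its highest group mean was in mTEC, at 12.9 ± 3.48 CPM (SD, n = 3).

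**Figure D2:**
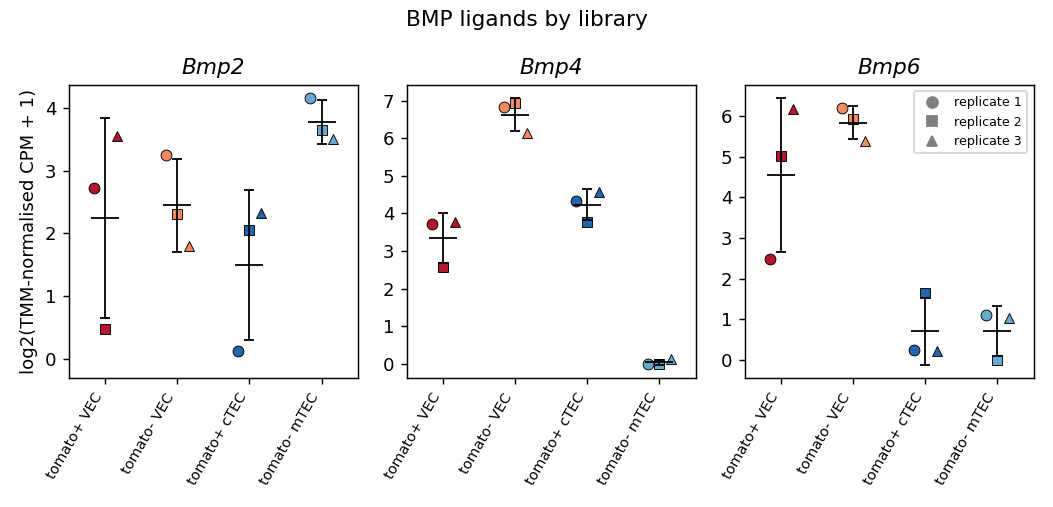
Bmp2, Bmp4 and Bmp6 by library on a log2(TMM-normalised CPM + 1) scale, 1 panel per gene, with symbols for replicates 1 to 3 and a bar for the group mean ± SD (n = 3). Bmp4 is near 0 in all 3 mTEC libraries and lower in all tomato+ VEC libraries than in all tomato- VEC libraries, Bmp6 is near the bottom of its panel in all 6 TEC libraries, and Bmp2 is highest in mTEC.

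Per transcript length, Bmp4 took the largest mean share of the 3 ligands in tomato- VEC and cTEC, Bmp6 in tomato+ VEC and Bmp2 in mTEC, and no test of these shares was made. The share of Bmp6 in their summed RPKM (mean ± SD, n = 3 per group) was 58.3 ± 34.7% in tomato+ VEC, against 31.2 ± 2.58% in tomato- VEC. Bmp4 took 30.5 ± 25.1% of it in tomato+ VEC and 66.3 ± 3.43% in tomato- VEC. The tomato+ VEC libraries did not share a ratio: Bmp4 was 59.4% of the sum in the highest of them and 15.9% in the lowest. In cTEC Bmp4 made up 87.1 ± 12.0%, against 0.292 ± 0.507% in mTEC. Bmp2 made up 9.00 ± 7.58% in cTEC, against 94.3 ± 5.23% in mTEC. In absolute terms the sum was largest where Bmp4 was, since Bmp4 alone averaged 47.6 ± 12.0 RPKM in tomato- VEC.

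**Figure D3:**
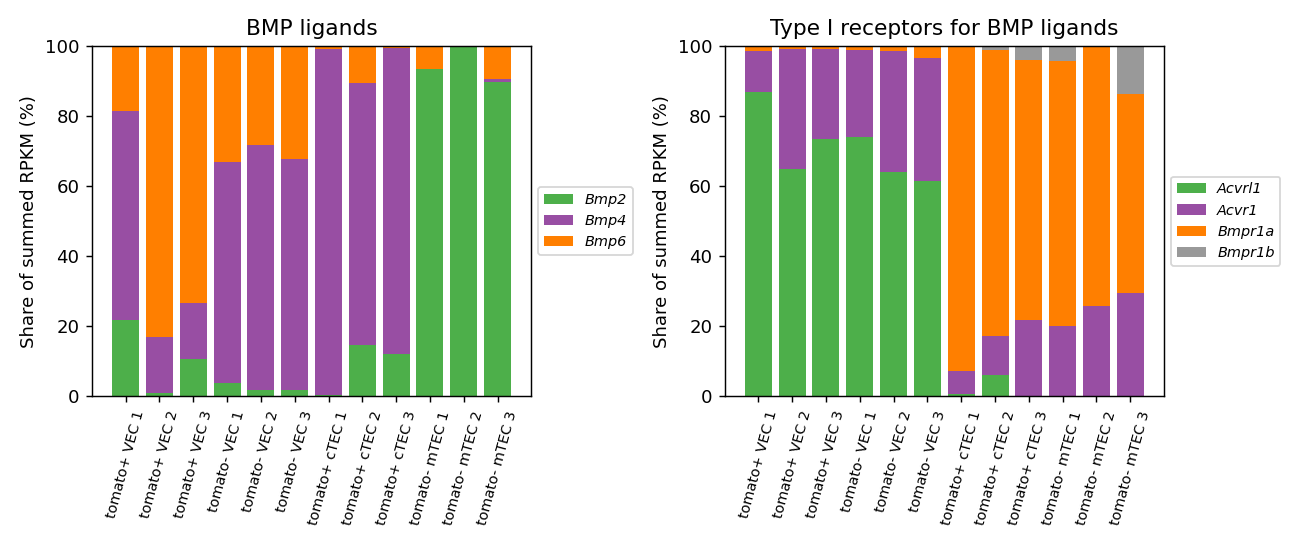
Share of summed RPKM, in percent, taken by each of the 3 BMP ligands (left) and by each of 4 type I receptors for BMP ligands (right) in every library, with 1 bar per library. Bmp4 fills most of the cTEC bars and Bmp2 most of the mTEC bars on the left, and Acvrl1 fills most of the VEC bars and Bmpr1a most of the TEC bars on the right.

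Among the receptors, Acvrl1 and Eng were endothelial transcripts. Acvrl1, the ALK1 type I receptor, had 90.6, 159 and 41.8 CPM in tomato+ VEC, 133, 80.5 and 89.7 CPM in tomato- VEC, 1.19, 7.74 and 0 CPM in cTEC, and 0.0964, 0 and 0 CPM in mTEC. All 6 VEC libraries lay above all 6 TEC libraries, at 99.2 ± 41.4 CPM in VEC and 1.51 ± 3.09 CPM in TEC (SD, n = 6 each, adjusted p = 9.36e-05). Between tomato+ and tomato- VEC the libraries overlapped, with a log2 difference of -0.06 (SE 1.01, adjusted p = 1.00) that was 0.36 without tomato+ VEC replicate 3.

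Acvrl1 passed in cTEC against mTEC as well, but on few counts. The 92 counts in cTEC against 1 in mTEC gave a ratio of 88.6 with a 95% counting interval of 15.5 to 3537 and an adjusted p of 0.0437. The libraries overlapped, since cTEC replicate 3 and mTEC replicates 2 and 3 had no count, and 79 of the 92 cTEC counts were in replicate 2. The 6 endothelial markers stood in that library at 2.74% to 6.25% of their mean over the VEC libraries, and Acvrl1 stood at 7.81%. The part of endothelial RNA in this result was not tested. The adjusted p was 0.188 without cTEC replicate 2, 0.0701 without cTEC replicate 1 and 0.116, 0.130 and 0.133 without mTEC replicate 1, 2 or 3. It was 0.0561 and 0.0505 without tomato+ VEC replicate 1 or 2, and 0.0545, 0.0595 and 0.0574 without tomato- VEC replicate 1, 2 or 3. It was 0.280 by limma voom, and 0.457 and 0.198 by limma-trend at pseudocounts of 1 and 0.1. Of the 20 alternatives in which it was tested 6 kept Acvrl1 past the threshold. The fit of just the 6 TEC libraries was not among these 20, since Acvrl1 did not pass the filter on low counts there.

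Eng, which encodes the co-receptor endoglin, had 432, 287 and 284 CPM in tomato+ VEC, against 832, 701 and 586 CPM in tomato- VEC. It had 1.38, 14.3 and 0.346 CPM in cTEC, against 0.771, 0.233 and 3.93 CPM in mTEC. All VEC libraries lay above all TEC libraries, with a log2 fold change of 7.33 (SE 0.88, adjusted p = 4.44e-05). All 3 tomato+ VEC libraries lay below all 3 tomato- VEC libraries, by a log2 difference of -1.08 that did not pass (SE 0.94, adjusted p = 0.620). By limma voom the same difference had an adjusted p of 0.0220. In cTEC replicate 2 Eng stood at 2.75% of its VEC mean, within the range of Pecam1 and the other endothelial markers there.

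Tgfbr3, the gene of betaglycan, a co-receptor that presents TGF-beta and inhibins, was found at a high level in cortical epithelium as well as in endothelium. It had 474, 425 and 426 CPM in tomato+ VEC, 500, 493 and 579 CPM in tomato- VEC, 316, 329 and 285 CPM in cTEC, and 17.5, 19.1 and 25.4 CPM in mTEC. The mTEC libraries lay far below all others, and replicates of a group were close together. In cTEC against mTEC Tgfbr3 rose by a log2 fold change of 3.91 (SE 0.22, adjusted p = 3.38e-06), and in VEC against TEC by 2.59 (SE 0.15, adjusted p = 1.21e-07). Tomato+ VEC lay below tomato- VEC in all libraries by a log2 difference of -0.25 that did not pass (SE 0.19, adjusted p = 0.591). cTEC replicate 2, with its endothelial markers at a few percent of VEC, had 68.2% of the mean VEC level of Tgfbr3, against 65.4% and 59.0% in cTEC replicates 1 and 3.

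Bmpr2, the type II receptor for BMPs, spread widely within tomato+ VEC. It ranged over 4.84 to 52.3 CPM in tomato+ VEC, 29.8 to 40.6 CPM in tomato- VEC, 9.63 to 19.5 CPM in cTEC and 1.63 to 6.65 CPM in mTEC. Tomato+ VEC replicate 2 was below every cTEC library and replicate 3 was above every other library. Bmpr2 was higher in VEC than in TEC, with a log2 fold change of 1.99 (SE 0.58, adjusted p = 0.0180). All cTEC libraries lay above all mTEC libraries, with a log2 difference of 1.96 that did not pass (SE 0.82, adjusted p = 0.194).

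**Figure D4:**
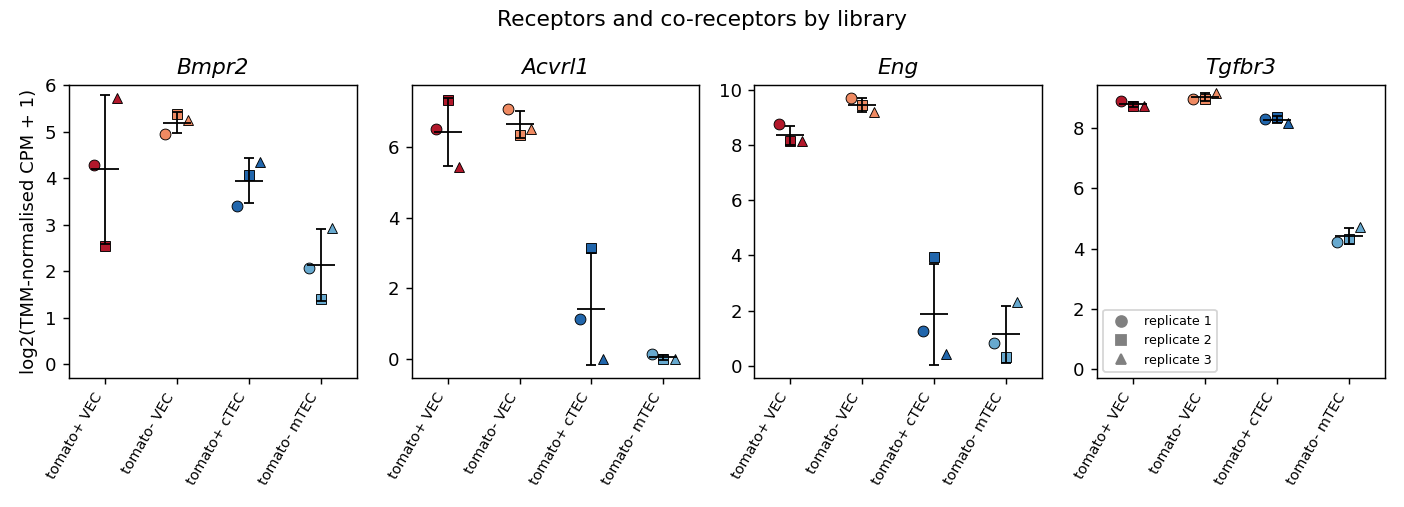
Bmpr2, Acvrl1, Eng and Tgfbr3 by library on a log2(TMM-normalised CPM + 1) scale, 1 panel per gene, with symbols for replicates 1 to 3 and a bar for the group mean ± SD (n = 3). Acvrl1 and Eng are high in all 6 VEC libraries and near the bottom in TEC apart from cTEC replicate 2, while Tgfbr3 is high in VEC and cTEC and low in mTEC.

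A comparison per transcript length placed Acvrl1 among the type I receptors that bind BMPs. Of the summed RPKM of Acvrl1, Acvr1, Bmpr1a and Bmpr1b, tomato+ VEC had 75.1 ± 11.0% in Acvrl1 and tomato- VEC had 66.4 ± 6.61% (SD, n = 3 each). It made up 2.23 ± 3.37% in cTEC and 0.0498 ± 0.0862% in mTEC. Bmpr1a, which encodes the type I receptor ALK3, made up 0.969 ± 0.531% in tomato+ VEC, 2.05 ± 1.27% in tomato- VEC, 82.8 ± 9.26% in cTEC and 68.9 ± 10.5% in mTEC. Bmpr1a was lower in VEC than in TEC, at 3.23 ± 2.39 CPM in VEC and 139 ± 81.0 CPM in TEC (SD, n = 6 each, log2 fold change -5.44, SE 0.45, adjusted p = 2.48e-06). Acvrl1 and Bmpr1a were thus called in opposite directions between the compartments, and no library of either gene overlapped.

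Among the targets, Id1 had the largest fitted difference between the endothelial populations. Id1, an inhibitor of basic helix-loop-helix factors and a standard readout of BMP signalling, had 887, 659 and 322 CPM in tomato+ VEC, against 134, 192 and 63.2 CPM in tomato- VEC. It had 74.6, 85.3 and 52.9 CPM in cTEC, against 38.2, 65.1 and 130 CPM in mTEC. The tomato+ VEC libraries lay above every other library, and the other 3 groups overlapped. In tomato+ VEC against tomato- VEC the log2 difference was 2.26, just outside the threshold (SE 0.53, adjusted p = 0.0552). It passed under 10 of 21 alternatives, whose adjusted p ran from 0.000929 by DESeq2 to 0.137, and among them were the fits without tomato+ VEC replicate 3 (0.0256), without mTEC replicate 1 (0.0469) and without mTEC replicate 3 (0.0409). Id1 was higher in tomato+ VEC than in cTEC by a log2 fold change of 3.13 (SE 0.54, adjusted p = 0.00151) and than in mTEC by 3.00 (SE 0.54, adjusted p = 0.00155). Tomato- VEC was not separated from cTEC (log2 difference 0.87, adjusted p = 0.273) or from mTEC (0.74, adjusted p = 0.333).

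Smad6, an inhibitory Smad induced by BMP signalling that blocks BMP receptors, followed the order of Id1 within endothelium at a lower count. It had 31.7, 27.5 and 11.6 CPM in tomato+ VEC, 2.12, 6.06 and 8.85 CPM in tomato- VEC, 11.1, 5.59 and 8.31 CPM in cTEC, and 2.60, 0.465 and 2.49 CPM in mTEC. All tomato+ VEC libraries lay above all tomato- VEC libraries and all cTEC libraries above all mTEC libraries. Neither difference passed, with log2 values of 2.05 (SE 0.87, adjusted p = 0.272) and 2.16 (SE 0.88, adjusted p = 0.183). Smad6 was higher in tomato+ VEC than in mTEC, with a log2 fold change of 3.66 (SE 0.94, adjusted p = 0.0117). In VEC against TEC it had a log2 difference of 1.55 (SE 0.61, adjusted p = 0.0670), and the adjusted p was 0.0287 by DESeq2, 0.0480 without tomato+ VEC replicate 3 and 0.0406 without tomato- VEC replicate 1.

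The Smad6 promoter is shown because the gene is a direct BMP target and its window held a Smad motif. Promoters were read from RefSeq windows of GRCm38.p6 for 5 of the 10 genes (Bmp4, Bmp6, Bmpr2, Eng and Smad6), and those of Bmp2, Acvrl1, Tgfbr3, Id1 and Smad7 were not used here. The Smad-binding palindrome GTCTAGAC, which reads the same on both strands, was searched in the 250 bases before the start site and the first 10 after it. It was found once in Smad6, at bases -4 to 4 counted from the start site with no base 0, and in 49 of 27025 promoters of that length (0.181%). The GC-rich motif GGCGCC, bound by the BMP Smads and also a palindrome, was found once in Bmpr2 and in 9.95% of all promoters. Neither motif was found in the windows of Bmp4, Bmp6 and Eng. A match describes these letters and is not a measured binding site. The Smad6 window, at chr9:64022050-64022309 on the minus strand, is written 5′ to 3′ with the palindrome in capitals.
Smad6: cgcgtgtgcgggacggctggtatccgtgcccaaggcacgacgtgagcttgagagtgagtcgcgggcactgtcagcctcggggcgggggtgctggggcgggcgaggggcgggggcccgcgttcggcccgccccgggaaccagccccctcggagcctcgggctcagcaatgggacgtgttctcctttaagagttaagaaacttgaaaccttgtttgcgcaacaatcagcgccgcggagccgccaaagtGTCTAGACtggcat

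Smad7, an inhibitory Smad that blocks both TGF-beta and BMP receptors, varied least across groups. It ranged over 26.3 to 63.8 CPM in tomato+ VEC, 25.8 to 39.1 CPM in tomato- VEC, 9.21 to 18.1 CPM in cTEC and 3.95 to 16.2 CPM in mTEC. Every VEC library lay above every TEC library, and Smad7 was higher in VEC by a log2 fold change of 1.54 (SE 0.45, adjusted p = 0.0171). Between tomato+ and tomato- VEC the libraries overlapped, with a log2 difference of 0.37 (SE 0.62, adjusted p = 0.838) that was -0.12 without tomato+ VEC replicate 1. cTEC and mTEC also overlapped, with a log2 difference of 0.65 (SE 0.62, adjusted p = 0.670).

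**Figure D5:**
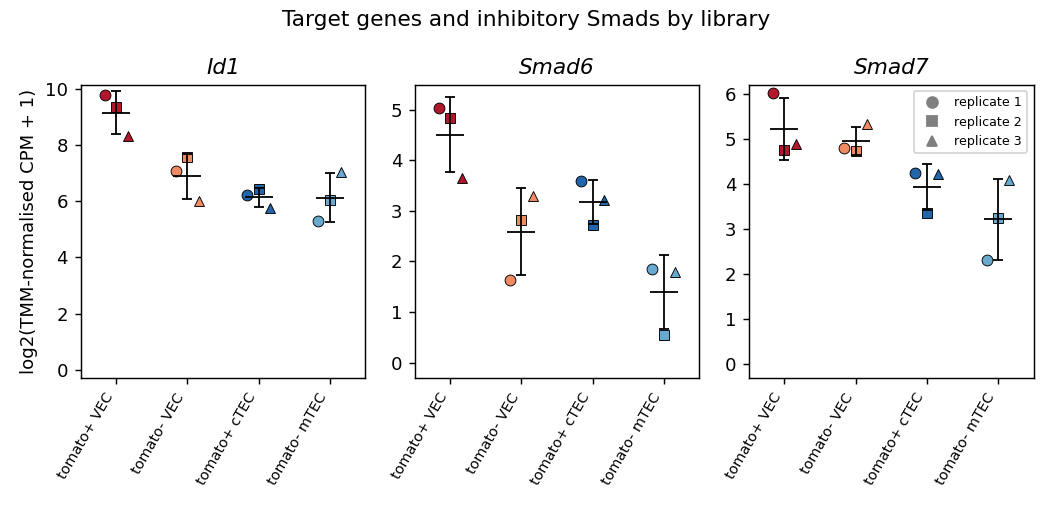
Id1, Smad6 and Smad7 by library on a log2(TMM-normalised CPM + 1) scale, 1 panel per gene, with symbols for replicates 1 to 3 and a bar for the group mean ± SD (n = 3). The 3 tomato+ VEC libraries lie above the 3 tomato- VEC libraries for Id1 and Smad6, which did not pass the test, and the same groups overlap for Smad7.

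Within endothelium, then, the ligand Bmp4 and the targets Id1 and Smad6 stood in opposite order. Bmp4 was lower in all tomato+ VEC libraries and passed the test, and Id1 and Smad6 were higher in all of them and did not pass. The ligands Bmp2 and Bmp6 and the target Smad7 overlapped between tomato+ and tomato- VEC, with log2 differences of 0.17, -0.69 and 0.37. A link between ligand and targets was not tested. In all, 5 of the 10 genes had no overlap between tomato+ and tomato- VEC, 2 of them above (Id1 and Smad6) and 3 below (Bmp4, Eng and Tgfbr3), and 1 of these 5, Bmp4, passed the test. Of all genes tested 7.46% lay above and 8.32% below with no overlap in that pair. Markers of vessel type moved with the same groups. The 4 arterial markers summed to 668 to 768 CPM in tomato+ VEC and 54.8 to 105 CPM in tomato- VEC, and 2 of them, Efnb2 and Hey1, passed as higher. The 4 venous markers summed to 234 to 557 CPM in tomato+ VEC and 5631 to 6680 CPM in tomato- VEC, where Darc passed as lower. The 4 lymphatic markers summed to 48.7 to 61.5 CPM in tomato+ VEC and 85.2 to 173 CPM in tomato- VEC. Lyve1, at 0 in all tomato+ VEC libraries, had 36.4 to 78.2 CPM in tomato- VEC and passed as lower, as did Pdpn. Flt4 ran opposite to the sum without passing, at 54.3 CPM in tomato+ VEC and 38.1 CPM in tomato- VEC on average, and Prox1 was not tested. The 5 medullary markers summed to 1.70 to 3.43 CPM in tomato+ VEC and 77.4 to 277 CPM in tomato- VEC. Nearly all of the sum in tomato- VEC was the chemokine gene Ccl21a, which passed as lower at 1.48 CPM in tomato+ VEC and 206 CPM in tomato- VEC on average (log2 fold change -7.08, SE 0.65, adjusted p = 0.000169), while Aire, Krt5, Krt14 and Fezf2 averaged at most 0.474 CPM in either group. The 3 platelet markers reached 174 CPM in tomato- VEC replicate 1 and at most 18.3 CPM in the other VEC libraries. The part of vessel type and of other cells in the values of the 10 genes was not tested.

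In epithelium Bmp4 and Tgfbr3 were the members called with no overlap between cTEC and mTEC, and Bmpr2 and Smad6 also lay higher in all cTEC libraries without passing. Bmp2 lay lower in all of them, also without passing. Of all genes tested 18.7% lay above and 20.3% below with no overlap in this pair. The sum of the 9 markers of mesenchyme and pericytes was 1623 to 2207 CPM in cTEC and 491 to 621 CPM in mTEC. Most of the sum in cTEC was Dcn, at 1559 to 2057 CPM in cTEC and 116 to 370 CPM in mTEC, while Pdgfra ranged over 1.08 to 9.26 CPM in cTEC and 0.481 to 4.30 CPM in mTEC. Dcn was the 1 marker of the 9 that passed, as higher (log2 fold change 2.95, SE 0.67, adjusted p = 0.0212), and the pericyte genes Rgs5 and Pdgfrb ran opposite to the sum without passing. Rgs5 averaged 30.9 CPM in cTEC and 291 CPM in mTEC, and Pdgfrb 1.26 CPM in cTEC and 10.0 CPM in mTEC. The 8 thymocyte markers summed to 51.3 to 106 CPM in cTEC and 18.0 to 38.0 CPM in mTEC, and 2 of them, Cd3e and Cd8a, passed as higher. Cd3d, Cd3g and Rag1 were higher in cTEC on average without passing. Lck and Cd4 differed little, at 19.2 and 1.74 CPM in cTEC and 15.8 and 1.51 CPM in mTEC. Ptcra, which was not tested, ran opposite to the sum, at 0.154 CPM in cTEC and 1.92 CPM in mTEC. The 5 myeloid markers summed to 9.80 to 159 CPM in cTEC and 358 to 402 CPM in mTEC, and none of them passed. Most of the sum in mTEC was Lyz2, at 47.6 CPM in cTEC and 353 CPM in mTEC on average. Cd68 ran opposite to the sum, at 13.9 CPM in cTEC and 7.15 CPM in mTEC, while Itgam, Csf1r and Emr1 were lower in cTEC on average. The part of these cells in the Bmp4 and Tgfbr3 values was not tested.

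The reporter comparison in endothelium and the cTEC against mTEC comparison were set against each other in a single test of their difference. It called 2 of the 10 genes, Bmp4 and Tgfbr3, where 3.08% of all genes were called and 1.54% were lower. For Tgfbr3 the log2 difference between the comparisons was -4.15 (SE 0.29, adjusted p = 7.46e-05), with values of -0.25 in endothelium and 3.91 in epithelium. For Bmp4, lower in the tomato+ cells of endothelium and higher in those of epithelium, the adjusted p was 0.000277. Id1 did not pass, with a log2 difference of 2.40 (SE 0.72, adjusted p = 0.0944) between a value of 2.26 in endothelium and -0.14 (SE 0.50) in epithelium, where it was 0.49 without mTEC replicate 3.

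Over the 6 pairs of groups, 28 of 60 tests of the 10 genes passed. These were 9 in tomato+ VEC against mTEC (31.8% of all genes called, 12.4% as higher), 6 in tomato- VEC against mTEC (27.5% and 10.6%), 5 in tomato- VEC against cTEC (19.2% and 8.63%), 4 in tomato+ VEC against cTEC (21.9% and 9.45%), and the 3 and 1 given above. Apart from that of Bmp4 in the endothelial pair, each was higher in the group named first. Some of these pairs share libraries. Of the 9 genes higher in tomato+ VEC than in mTEC, Bmpr2 lost its call without tomato+ VEC replicate 3 (adjusted p = 0.127) or mTEC replicate 1 or 2 (0.0858 and 0.0895), by limma voom (0.0782) and by limma-trend at pseudocounts of 1 and 0.1 (0.0747 and 0.0661). Smad7 lost its call in that pair without tomato+ VEC replicate 1 (0.104) or mTEC replicate 1 or 2 (0.0898 and 0.0815). In tomato- VEC against mTEC the call of Bmpr2 was lost without mTEC replicate 1 or 2 (0.0586 and 0.0583). Tgfbr3 was higher in tomato- VEC than in cTEC by a log2 fold change of 0.76 (SE 0.19, adjusted p = 0.0167), which was lost without tomato- VEC replicate 3 (0.0622) or cTEC replicate 3 (0.0705), and by limma-trend at pseudocounts of 1 and 0.1 (0.129 and 0.140). For Bmp6, Acvrl1 and Eng the order was the same: the endothelial groups did not differ by the test, the epithelial groups did not differ apart from Acvrl1, and each endothelial group was above each epithelial group. The call of Bmp6 in tomato+ VEC against cTEC was lost without cTEC replicate 1 (0.0524) or replicate 3 (0.0577).

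The other genes of the pathway were divided between the compartments. Of 72 further ligands, receptors, Smads, antagonists and targets, 58 were tested, and 16 were higher and 21 lower in VEC than in TEC, with a median log2 difference of -0.23. That median was close to the -0.18 over all genes tested, where 14.4% were higher and 21.8% lower, and no test set the classes below against each other or against other genes. Genes of the BMP antagonists were lower in VEC where they passed, 8 of 11 tested against none higher. Fst, which encodes the activin and BMP antagonist follistatin, had 3 counts over the VEC libraries and 3625 over the TEC libraries, a 1016-fold lower level in VEC with a 95% counting interval of 348 to 4931. The further ligand genes that were tested were also mostly lower in VEC where they passed. Of 13 further BMP and GDF ligands only 4 were tested, and 3 of these were lower. Of 7 further TGF-beta and activin ligands 5 were tested, of which 2 were lower and 1 was higher. These counts leave out Bmp4 and Bmp6, which were both called as higher in VEC, and Bmp2, which did not pass. For Bmp4 that call held for the mean of the VEC groups, since all tomato+ VEC libraries lay below all cTEC libraries. Tgfb3 was lower in VEC, with 3 counts over the VEC libraries and 1388 over the TEC libraries. Inhbb, which encodes a subunit of activin B, was higher by a log2 fold change of 3.62 (SE 0.46, adjusted p = 7.19e-05). Bmp3 had 3 counts over the VEC libraries and 988 over the TEC libraries, and Gdf3 had 0 and 696. Genes this low in VEC, Fst and Tgfb3 among them, passed the filter through TEC and could be called only as lower. The number of lower calls is therefore no result about these classes of genes.

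Among the signal transducers, 10 Smads and their regulators were tested, of which 5 were higher in VEC and 1 was lower, and of 5 genes for latent TGF-beta binding and activation 3 were higher and 1 was lower. Ltbp4, a latent TGF-beta binding protein, had a log2 fold change of 3.30 in VEC against TEC (SE 0.35, adjusted p = 1.74e-05). Tgfbr2, the type II TGF-beta receptor, was higher in VEC by 2.57 (SE 0.28, adjusted p = 2.20e-05). Of 9 tested type I and type II receptors, 2 were higher and 3 were lower in VEC. Of 4 co-receptors and decoys 1 was higher and 1 lower, and of 10 further targets 4 were higher and 2 lower. Gdf2, the gene of the ALK1 ligand BMP9, and Bmp10, the gene of the other high-affinity ALK1 ligand, had 1 and 4 counts over all 12 libraries.

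Within the endothelial pair, 1 of the 58 tested pathway genes passed and it was lower, at a median log2 difference of 0 over the 58. That share was near the 1.65% called over all genes. Tgfbi, a matrix protein gene induced by TGF-beta, had 115, 66.6 and 18.2 CPM in tomato+ VEC, against 1401, 648 and 468 CPM in tomato- VEC (log2 fold change -3.65, SE 0.63, adjusted p = 0.0128). With only the 6 VEC libraries in the fit the adjusted p was 0.0589. Id3, the Id gene with the highest RPKM in VEC, lay above in all tomato+ VEC libraries by a log2 difference of 0.94. That difference did not pass (SE 0.30, adjusted p = 0.142), and Id3 was chosen for mention after its values were seen. Id2 did not share this order: its libraries overlapped, and tomato+ VEC averaged 241 RPKM against 256 RPKM for tomato- VEC. Id4 was low and its libraries overlapped too, with averages of 1.55 and 0.0612 RPKM in the same order.

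Between cTEC and mTEC 4 of the 58 were higher and 5 were lower, at a median of 0.09, where 2.73% and 5.10% of all genes were. Higher in cTEC were Tgfbr2, with 117.5 CPM in cTEC and 12.9 CPM in mTEC (log2 fold change 3.19, SE 0.41, adjusted p = 0.000905), Twsg1, an extracellular BMP modulator (1.77, SE 0.40, adjusted p = 0.0212), and Ltbp3, a latent TGF-beta binding protein (2.04, SE 0.49, adjusted p = 0.0283). Lower in cTEC were Skil, a repressor of Smad activity (-1.38, SE 0.29, adjusted p = 0.0151), Gdf3, a ligand of early embryos (1 count in cTEC and 695 in mTEC, adjusted p = 0.0154), and Bmp3 (0.267 CPM in cTEC and 31.2 CPM in mTEC, adjusted p = 0.0212). Of these Tgfbr2 passed under all 21 alternatives. Each of the other 5 lost its call when 1 of several TEC libraries was left out, always including cTEC replicate 1 and cTEC replicate 2 and mTEC replicate 2, with an adjusted p of up to 0.125.

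The genes most like each of the 10 over the 12 libraries were sought among 10678 genes with a mean of at least 5 CPM. Likeness was the root mean square difference of log2(CPM + 1) after centring each gene, given as a description. Eng had the closest neighbours relative to its own spread, Gngt2 at 0.55 and Mmrn2 at 0.59, where the SD of Eng itself was 4.00. Tgfbr3 was closest to Nfib (0.41) and Mylk (0.46), and Acvrl1 to Scarf1 (0.60) and Klhl6 (0.61). The genes nearest to Bmp4 were Kank1 (0.83) and Sirpa (0.89). Id1 was closest to Itsn2 (0.51) and Tcf3 (0.55), and Smad6 to Prkar2a (0.42) and Fam196a (0.52). For Smad7 the nearest were Ncoa7 (0.42) and Rap1b (0.42), for Bmpr2 Xbp1 (0.61) and Ccdc23 (0.62), for Bmp6 Dusp2 (0.77) and Pear1 (0.86), and for Bmp2 Exosc2 (0.56) and Surf4 (0.68).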

How the data were processed

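Poly(A) RNA of sorted thymic stroma was measured in 12 libraries, grouped by their titles. Per the submitters' processing notes, reads were handled with TopHat2 2.0.10 against mm9; the sources used here name no counter or annotation. The deposited table gives raw read counts per gene symbol, per the file headers. Beside them stand the authors' RPKM values, which equalled count over total and length for all 180417 values compared (relative tolerance 1e-06). Of 23306 symbols 1704 had no count.

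Counts were tested with edgeR 4.0.16 (R 4.3.3): filterByExpr with a minimum count of 10 left 14792 genes, scaling was by TMM, and a quasi-likelihood fit of all 12 libraries had 1 term per group and 8 residual degrees of freedom (common dispersion 0.624, biological coefficient of variation 0.790). p-values were Benjamini-Hochberg adjusted over all tested genes and called under 0.05. VEC against TEC is the mean of 2 groups minus the mean of 2. Folds of genes with 1 to 3 counts in a group are count ratios with a 95% interval. Libraries of a group differed by far more than sampling noise, so none was merged.

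The 10 genes, the 72 pathway genes and the marker lists were chosen with earlier results of these data known. Named were the 10 genes, up to 3 pathway genes with the smallest p per direction and comparison, and the 2 most alike genes for each of the 10. Alternatives were DESeq2 1.42.0, limma 3.58.1 (voom, and limma-trend on log2(RPKM + 1) and log2(RPKM + 0.1)), relative log expression (RLE) scaling, no filter, a 5 CPM filter (reached in 3 libraries), a fit of just the 6 libraries compared, a replicate block, and leaving out each library. The fits were tested on simulated data. Promoters came from RefSeq for GRCm38.p6.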

Additional observations from a re-analysis of the deposited data

Results flagged for a closer look

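The reporter comparison in VEC and the cTEC against mTEC comparison differed by the test of their difference for 2 of the 10 genes and 3 of the 58 further pathway genes, all lower in the endothelial comparison. For Bmp4 the fitted log2 difference was -12.06, a value that rests on 1 count in mTEC and is no bound. For Tgfbr3 it was -4.154. Among the pathway genes it was -2.315 for Tgfbr2 (adjusted p = 0.0411), -2.583 for Twsg1 (adjusted p = 0.0302) and -3.248 for Ltbp3 (adjusted p = 0.0282). Leaving out 1 library at a time left 0 to 2 calls among the pathway genes and 2 to 3 among the 10 genes.

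Bmpr1a stood out because its libraries moved in opposite directions: it was lower in all tomato+ VEC libraries than in all tomato- VEC libraries, at 1.88 and 4.57 CPM on average, and higher in all cTEC libraries than in all mTEC libraries, at 194 and 83.5 CPM. The fitted log2 difference of -2.5 did not pass the test of the difference.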

How the results depend on the processing

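VEC against TEC called 8 of the 10 genes (8 to 9 over the alternatives run), and the 6 pairs gave 28 calls (24 to 29 when a library was left out). In tomato+ VEC against tomato- VEC 1 of the 10 genes was called, 2 by DESeq2, RLE scaling, no filter, the 5 CPM filter and both limma-trend fits, 3 by limma voom, and 0 to 2 without a library. The 244 calls over all genes became 1253 with DESeq2, 601 with voom, 473 and 447 with limma-trend at pseudocounts of 1 and 0.1, 112 with only the 6 libraries compared, and 174 to 394 without a library. The 1 pathway call became 7, 5, 2 and 2 in the same first 4, and 1 to 2 without a library. In cTEC against mTEC the 1158 calls became 1973, 2219, 2530, 2172 and 2487 in the same 5, and 428 to 1193 without a library. The 9 pathway calls became 11, 10, 11, 9 and 12 in these 5, and 1 to 9 without a library. For the difference of the comparisons the 456 calls became 1418, 1309, 1766 and 1529 by the 4 other tests and 159 to 491 without a library, the 2 calls among the 10 genes became 4 by DESeq2, and the 3 pathway calls became 12, 5, 7 and 6, and 0 to 2 without a library. The causes were not tested.

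Among 80 fitted differences of the 10 genes none that passed turned its sign, and 12 that did not pass turned it under at least 1 alternative, with an adjusted p of 0.524 or more. Leaving out a library gave log2 differences of -0.54 to 0.36 for Acvrl1, -0.63 to 0.82 for Bmp2, -1.56 to 0.018 for Bmpr2 and -0.12 to 0.65 for Smad7 in tomato+ VEC against tomato- VEC, -2.01 to 0.68 for Bmp6, -1.02 to 3.37 for Eng and -0.44 to 0.49 for Id1 in cTEC against mTEC, -0.49 to 0.23 for Bmp2 in VEC against TEC, -0.27 to 1.31 for Bmpr2 in tomato+ VEC against cTEC, and -1.73 to 1.36 for Bmp6, -0.52 to 0.36 for Smad6 and -0.90 to 0.091 for Smad7 between the comparisons. Those of Bmp6 and Eng turned without cTEC replicate 2, and that of Bmp6 in cTEC against mTEC also without mTEC replicate 2. Bmp2 in the VEC pair was -0.503 by limma voom, -0.081 and -0.465 by limma-trend and -0.090 with the replicate block, Bmp6 in the TEC pair -0.12 with the block, Bmpr2 in tomato+ VEC against cTEC -0.061 by limma-trend at 0.1, Id1 in the TEC pair 0.089 and 0.092 by limma-trend, and Smad6 between the comparisons 0.21 by limma-trend at 1.

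With the replicate number as a replicate block the last counts were 269 over all genes and 1 pathway gene, the VEC comparison had 178 calls, and Acvrl1 in cTEC against mTEC lost its call (adjusted p = 0.0770). Deviations from the group mean correlated at -0.0136 to 0.0768 between same-numbered libraries of different groups (median 0.0182). Between libraries of different number the range was -0.0602 to 0.0286 (median -0.0125). These correlations are small and cannot tell whether libraries of the same number share an origin. RLE scaling moved the median of all genes in VEC against TEC to -0.31 from -0.18. At these depths 1 count was worth 0.0802 to 0.131 CPM, which limits Bmp4 and Acvrl1 in mTEC.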
